A study of Mus musculus with 8 samples.

Results

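The cadherins and protocadherins of pituitary gonadotropes were described in RNA sequenced from sorted EGFP-positive cells. Members were all entries of the count table whose symbol is Cdh or Pcdh followed by a number, or names a variant of the alpha, beta or gamma protocadherin cluster, which gave 92 of 55523 entries. All 8 libraries came from the pituitary of the Ad4BP-BAC-EGFP mouse, a transgenic line in which EGFP marks the cells that use the *Nr5a1* (Ad4BP) gene, so the females and the males carry the same transgene. They were 4 female and 4 male libraries, named female 1 to 4 and male 1 to 4. The labels name no treatment and give neither the age of the mice nor how many mice went into a library, and nothing says that the replicates were separate animals, so the p-values measure the spread between these libraries. Male 1 was left out of the tests because the study set it aside, and its values are given apart.

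Cadherins are surface proteins that bind a like cadherin on the neighbouring cell in the presence of calcium. The classical cadherins, of type I and type II, hold the adherens junction and are tied to actin through the catenins. Delta protocadherins are single genes with a long cytoplasmic tail. The alpha, beta and gamma protocadherins lie side by side on chromosome 18, and in neurons each cell uses a few of them, chosen by promoter, so that the mixture acts as an identity tag. Each alpha and gamma variant has its own first exon and shares the remaining exons with its cluster, whereas a beta variant is a gene of its own. In the pituitary, E-cadherin and N-cadherin join the endocrine cells into networks.

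The total count was between 18774578 and 31302588 per library, and 3 counts in a library corresponded to between 0.0921 and 0.146 CPM, counts scaled to the library total after correction with TMM factors. All 6 gonadotrope markers were found in every library, but they did not move together. Their sum was between 21596 and 34941 CPM in the females and between 67977 and 75754 CPM in male 2 to 4, with 28522 CPM in male 1. It was carried mostly by *Cga* and *Lhb* in the females and male 1, and by *Cga* and *Fshb* in male 2 to 4. *Fshb* was called higher in the males. *Nr5a1*, the gene that the EGFP transgene reports, was between 862 and 1266 CPM in the females and between 584 and 801 CPM in male 2 to 4, and 16.3 CPM in male 1. This value goes against the label of male 1, whereas its *Lhb* level of 9337 CPM lay among those of male 2 to 4. The other gonadotrope markers of male 1 did not lie there. *Cga* at 12836 CPM and *Gnrhr* at 473 CPM were the lowest of all 8 libraries. *Fshb* at 5760 CPM was below male 2 to 4, and *Foxl2* at 99.2 CPM lay among the females. *Foxl2* was between 78.7 and 108 CPM in the females and between 37.1 and 64.6 CPM in male 2 to 4, and neither *Nr5a1* nor *Foxl2* was called. *Gh* and *Ghrhr*, markers of somatotropes, summed to between 12397 and 57867 CPM in the females and between 65338 and 142305 CPM in male 2 to 4, with 30152 CPM in male 1. The thyrotrope marker *Tshb* was between 20.9 and 83.5 CPM in the females and between 235 and 339 CPM in male 2 to 4, with 82.7 CPM in male 1 (log2 fold change 2.35, edgeR adjusted p = 0.0525). Female 1 to 4 and male 2 to 4 did not overlap in either value, male 1 lay within the female range in both, none of the 3 genes was called, and their part in the differences between the sexes below was not tested. *Pomc*, a marker of corticotropes and melanotropes, was between 10140 and 28580 CPM over the 8 libraries and above *Lhb* in each. *Prl*, a marker of lactotropes, was between 1621 and 18125 CPM. Both overlapped between the sexes. The levels below are those of all RNA in the sorted samples. In these bulk samples, fewer cells of a type and less RNA per cell cannot be told apart. Of the 92 members, 81 had a mean of at least 1 CPM over the females and male 2 to 4. In every female library 67 members reached 1 CPM, and 70 members did so in all of male 2 to 4. *Cdh16* and *Pcdhga10* had 0 counts in all 8 libraries.

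Compared per kilobase of the longest coding transcript, *Cdh2*, which encodes N-cadherin, had the highest level in both sexes, with a mean of 24.3 CPM per kb in the females (range 22.9 to 27.6) and 24.1 CPM per kb in male 2 to 4 (range 22.0 to 25.6). Its lowest library was above the highest of any other member in the same sex. In the females it was followed by *Cdh26* at 15.9, *Cdh11* at 15.3, *Pcdh17* at 14.6, *Cdh5* at 14.1 and *Pcdh7* at 11.4 CPM per kb. The ranges of these neighbours overlapped. In male 2 to 4 the order after *Cdh2* was *Pcdh17* at 16.9, *Cdh5* at 14.6, *Pcdha11* at 11.9 and *Pcdhb9* at 11.7 CPM per kb, again with overlapping ranges between neighbours, while *Cdh26* was at 5.29 and *Cdh11* at 2.91 CPM per kb. For *Pcdha11* the length includes the exons shared within the cluster, so its level per kilobase describes the whole transcript rather than its own exon.

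To see which adhesion genes differed between the sexes, male 2 to 4 were compared with female 1 to 4 by the quasi-likelihood test of edgeR, with adjustment over all 20152 genes that passed the filter on low counts. Of the members, 83 were tested and 9 did not pass that filter, and 2 of the 83 passed the adjusted threshold of 0.05, against 2.34% of all genes tested. Both, *Cdh11* and *Cdh26*, were lower in the males, where 1.35% of all genes were called, and no member was called higher, where 0.983% were. At an unadjusted p under 0.05 there were 16 members, against 19.9% of all genes. DESeq2, run as an alternative, called 9 members, against 9.93% of all genes to which it gave an adjusted p. These were *Cdh11*, *Cdh26*, *Cdh1*, *Cdh3*, *Cdh12*, *Cdh23*, *Pcdh8*, *Pcdha9* and *Pcdhb1*. Calls are those of the edgeR test unless another tool is named. The libraries of the sexes did not overlap for 16 of the 83 members, against 22.3% of all genes. Of these, 9 were above all females in each of male 2 to 4 (11.5% of all genes) and 7 were below (10.8% of all genes). Each of these shares was near that of all genes, and the median log2 fold change was 0.05 over the members and -0.03 over all genes tested.

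**Figure D1:**
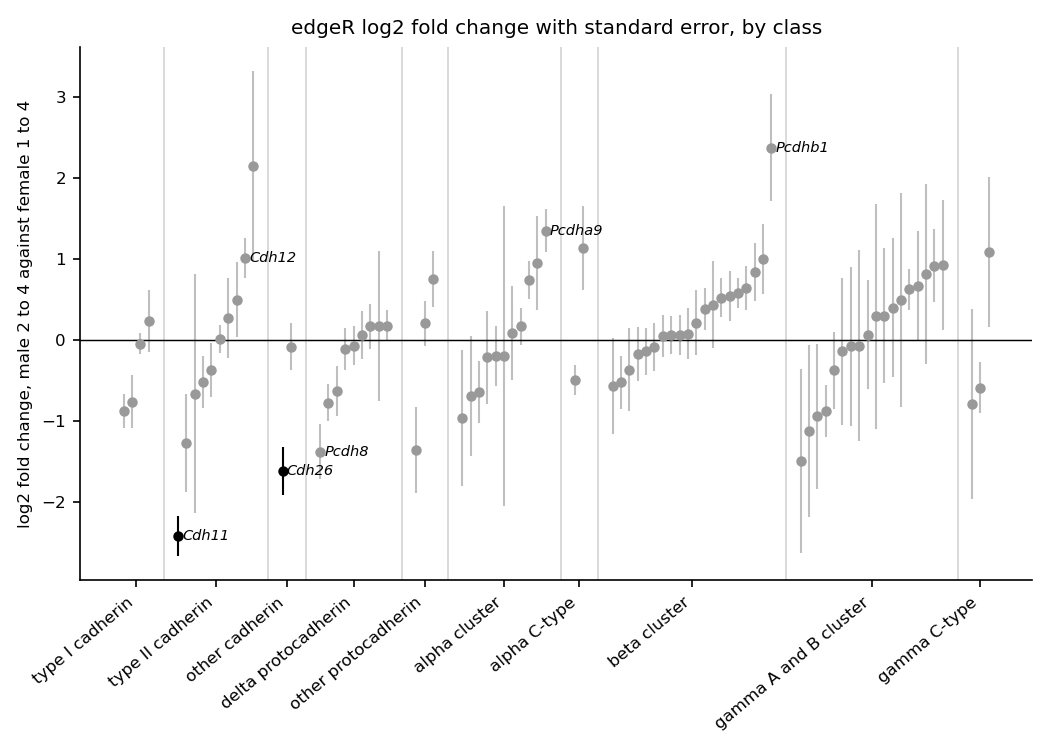
edgeR log2 fold change of the tested members, male 2 to 4 against female 1 to 4 (vertical axis, positive when higher in males), with bars of 1 standard error, grouped by class along the horizontal axis. Black points are *Cdh11* at -2.42 and *Cdh26* at -1.62, which passed the adjusted threshold. Grey points did not, and *Cdh3*, with 0 counts in male 2 to 4, is left out because its fitted value depends on the prior count.

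Among the type I cadherins, *Cdh2* was nearly even between the sexes. Its level was 111, 111, 114 and 133.9 CPM in female 1 to 4, 119.7, 124 and 106 CPM in male 2 to 4, and 96.3 CPM in male 1. The groups overlapped, and the log2 fold change was -0.04 (SE 0.13, edgeR adjusted p = 0.900). *Cdh1*, which encodes E-cadherin, stood at 49.7, 35.6, 36.2 and 30.4 CPM in the females and 23.8, 21.8 and 17.9 CPM in male 2 to 4. All 3 of these males lay below all females, but male 1 at 43.7 CPM lay among the females, and the log2 fold change of -0.88 (SE 0.21) did not pass (edgeR adjusted p = 0.0779, DESeq2 adjusted p = 0.00946), and with male 1 included it was -0.51 (edgeR adjusted p = 0.665). Markers of stem cells, which also carry E-cadherin, summed to between 395 and 648 CPM in the females, between 269 and 371 CPM in male 2 to 4 and 511 CPM in male 1. Of these 5 stem cell markers *Sox9*, the most abundant, was called lower in the males. *Sox2* was also lower in male 2 to 4 without overlap, but was not called. *S100b*, *S100a1* and *Aldh1a2* overlapped. *Aldh1a2* was nearly even, with a mean of 88.3 CPM in the females and 88.7 CPM in male 2 to 4. None of the 5 was at 0 in any library, and their part in the *Cdh1* values was not tested.

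*Cdh3*, which encodes P-cadherin, was close to the limit of the depth. It had 19, 9, 29 and 8 counts in female 1 to 4 and 0 counts in each of male 2 to 4, but 20 counts in male 1. Taken over group means, its level of 0.622 CPM in the females was at least 4.56-fold higher than the floor of 3 counts in the shallowest of the 3 male libraries. It did not pass the test (edgeR adjusted p = 0.0535), but did with library size alone (edgeR adjusted p = 0.0420) and with DESeq2 (adjusted p = 0.000407), and with male 1 included the edgeR adjusted p was 0.814. *Cdh4*, which encodes R-cadherin, and *Cdh15*, which encodes M-cadherin, were detected in all 8 libraries, at 17.3 to 44.4 CPM and 2.57 to 7.43 CPM, and neither passed.

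The largest difference of any called member was that of the type II cadherin *Cdh11* (chr8:102632095-102785642, minus strand, GRCm38), which encodes the mesenchymal cadherin known as OB-cadherin. *Cdh11* was at 89.1, 70.1, 118 and 68.3 CPM in female 1 to 4. It was at 15.5, 14.6 and 19.3 CPM in male 2 to 4 and 9.69 CPM in male 1. Every male library, male 1 included, was below every female library, and the raw counts behind the values were 1438 to 3849 in the females and 222 to 424 in the males. The mean was 86.4 ± 23.1 CPM (SD, n = 4) in the females and 16.4 ± 2.47 CPM (SD, n = 3) in male 2 to 4, a level 5.35-fold higher in females by the fitted log2 fold change of -2.42 (SE 0.25, edgeR adjusted p = 0.0115). The two-sided exact permutation p was 0.0286, the smallest that 35 splits of 7 libraries allow. With all 8 libraries the log2 fold change was -2.55 (edgeR adjusted p = 0.0121). Without male 2 it was -2.37 (adjusted p = 0.0507) and without male 3 -2.33 (adjusted p = 0.0504), which is just outside the threshold, and without both libraries numbered 2 it was -2.45 (adjusted p = 0.110).

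Since *Cdh11* is known from mesenchymal cells, the stromal and pericyte markers are given beside it. Their sum over 6 genes was between 120 and 170 CPM in the females, between 105 and 113 CPM in male 2 to 4 and 108 CPM in male 1. None of the 6 was called and none was at 0 in any library. *Col1a1* (5.37 to 13.1 CPM in females, 2.95 to 4.27 CPM in male 2 to 4) and *Col3a1* (6.93 to 9.54 and 1.93 to 4.45 CPM) did not overlap between these groups, whereas *Dcn*, the most abundant, did (32.3 to 77.8 and 45.8 to 52.4 CPM). The part of stromal RNA in the *Cdh11* difference was not tested.

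*Cdh5*, which encodes the endothelial VE-cadherin, was the type II member with the highest mean in male 2 to 4 and came after *Cdh11* in the females. It was at 67.7, 50.0, 54.5 and 53.1 CPM in the females, 59.1, 66.2 and 49.2 CPM in male 2 to 4 and 86.5 CPM in male 1. The groups overlapped (log2 fold change 0.01, SE 0.17, edgeR adjusted p = 0.977). The 6 endothelial markers, none at 0 in any library, summed to between 419 and 545 CPM in the females, between 441 and 588 CPM in male 2 to 4 and 630 CPM in male 1. Male 1 was highest in *Cdh5* and in this sum, which *Kdr* (315 CPM) and *Plvap* (183 CPM) carried, but lowest of all 8 libraries in *Emcn* (17.4 CPM) and *Esam* (3.62 CPM). *Cdh12*, which encodes the neuronal N-cadherin 2, was at 4.23, 5.56, 6.84 and 6.31 CPM in the females and 10.9, 9.55 and 15.0 CPM in male 2 to 4. These groups did not overlap, male 1 at 4.58 CPM lay among the females, and the log2 fold change of 1.01 (SE 0.25) did not pass (edgeR adjusted p = 0.0811, DESeq2 adjusted p = 0.00898), and with male 1 included it was 0.80 (edgeR adjusted p = 0.498). The *Cdh12* locus also holds the predicted gene *Gm49685*. *Cdh9*, *Cdh20* and *Cdh22* stayed under 1 CPM in all 8 libraries and did not pass the filter of the edgeR test. The type II members *Cdh6*, *Cdh7*, *Cdh8*, *Cdh10*, *Cdh18*, *Cdh19* and *Cdh24* were at most at 7.36 CPM in any library, and none of them passed.

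**Figure D2:**
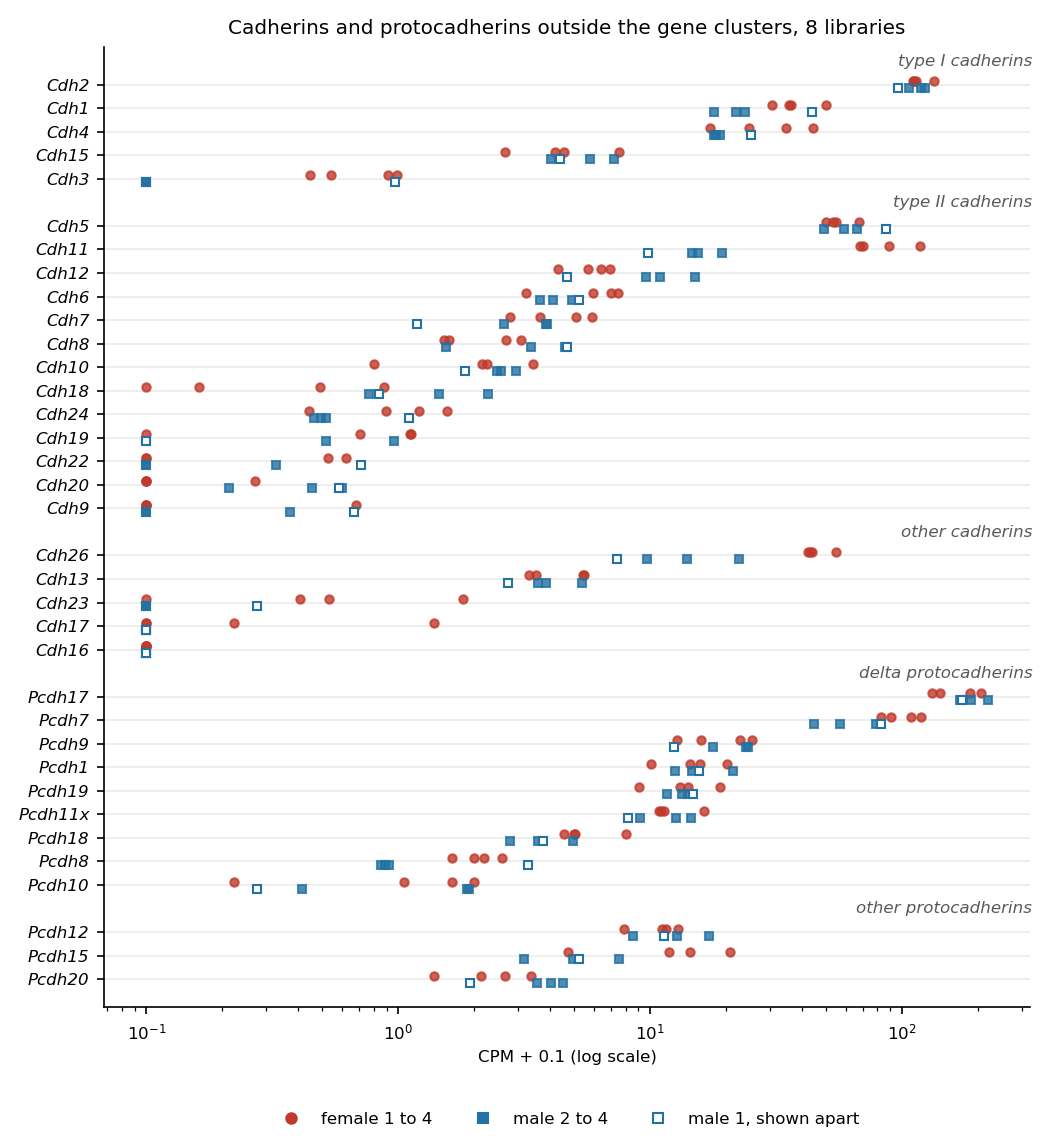
Level of the 35 members outside the clusters in each of the 8 libraries, as CPM plus 0.1 on a log axis, grouped by class and ordered within a class by mean. Circles are female 1 to 4, filled squares male 2 to 4 and open squares male 1. *Cdh11* and *Cdh26* have every male to the left of every female, while male 1 lies with the females for *Cdh1*, *Cdh12* and *Cdh3*.

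*Cdh26* (chr2:178430531-178487366, plus strand, GRCm38), a cadherin described in epithelia, was the other member called. It was at 43.3, 44.0, 54.9 and 42.3 CPM in female 1 to 4. It was at 22.5, 14.0 and 9.63 CPM in male 2 to 4 and 7.29 CPM in male 1. Again no male library reached the lowest female, and the males spread more relative to their mean, at 15.4 ± 6.57 CPM (SD, n = 3), than the females at 46.1 ± 5.91 CPM (SD, n = 4). The level was 3.07-fold higher in females (log2 fold change -1.62, SE 0.30, edgeR adjusted p = 0.0470, exact permutation p = 0.0286). The call was at the edge of the threshold. Leaving out any of the 4 females, male 3 or male 4 raised the edgeR adjusted p to between 0.0799 and 0.156, with a log2 fold change between -1.64 and -1.38, and including male 1 gave -1.80 with an adjusted p of 0.0898. Without male 2 it was -1.99 (adjusted p = 0.0446), and without both libraries numbered 2 it was -2.01 (adjusted p = 0.114). The other members of the class were *Cdh13*, the membrane-anchored T-cadherin, at 2.62 to 5.36 CPM, and *Cdh16*, *Cdh17* and *Cdh23*, which did not pass the filter of the edgeR test, although DESeq2 called *Cdh23*. Of these *Cdh17* reached 1.28 CPM and *Cdh23* 1.71 CPM in female 1 and both were at 0 in male 2 to 4.

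Windows of 250 bases before the start, from RefSeq on GRCm38.p6, were found for 22 of the 92 member symbols, 25 windows in all. They were searched on both strands for AAGGTCA, the half-site bound by NR5A1, for TAATCC, bound by PITX factors, for the E-box CAGGTG and for the GC box GGGCGG. The windows of *Cdh26*, which was called, and of *Pcdh17*, which had the highest CPM of all members, are shown because they are the windows of members the results turn on. *Cdh11* was named only. Capitals mark the matches and the strand is plus in both. The *Cdh26* window is chr2:178430265-178430514 and the *Pcdh17* window is chr14:84443313-84443562.
Cdh26: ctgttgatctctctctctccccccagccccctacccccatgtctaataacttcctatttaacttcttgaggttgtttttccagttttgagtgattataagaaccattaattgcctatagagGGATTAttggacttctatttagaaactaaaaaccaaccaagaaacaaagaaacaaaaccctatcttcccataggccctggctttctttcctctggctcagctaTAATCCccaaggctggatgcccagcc
Pcdh17: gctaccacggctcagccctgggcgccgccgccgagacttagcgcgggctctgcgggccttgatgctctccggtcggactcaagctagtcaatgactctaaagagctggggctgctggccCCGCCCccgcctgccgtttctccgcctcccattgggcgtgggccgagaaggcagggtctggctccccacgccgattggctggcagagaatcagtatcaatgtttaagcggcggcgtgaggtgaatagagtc
The *Cdh26* window held 2 matches to the PITX site, beginning 129 and 26 bases before the start, the first of them on the reverse strand, and no match to the NR5A1 half-site. The *Pcdh17* window held 1 GC box, beginning 131 bases before the start on the reverse strand. Over the members, the NR5A1 half-site was in 1 of 25 windows (*Cdh18*), the PITX site in 2, the E-box in 3 and the GC box in 9. Of all 32851 windows of this length, 4.08% held the NR5A1 half-site, 6.25% the PITX site, 17.2% the E-box and 32.7% the GC box. A match describes these letters only.

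The delta protocadherins, of which all 9 were tested and none was called by edgeR, were led by *Pcdh17*, known from axon growth and synapse assembly. *Pcdh17* was at 142, 132, 187 and 206 CPM in the females, 189, 219.7 and 171 CPM in male 2 to 4 and 174 CPM in male 1. The groups overlapped (log2 fold change 0.18, SE 0.19, edgeR adjusted p = 0.678). *Pcdh7* was at 119, 82.4, 91.0 and 108 CPM in the females and 56.8, 78.7 and 44.7 CPM in male 2 to 4, with male 1 at 82.6 CPM just above the lowest female. These 3 males were below all females, but the log2 fold change of -0.77 (SE 0.23) did not pass (edgeR adjusted p = 0.128). *Pcdh8*, an activity-regulated protocadherin, was low, at 1.54, 2.10, 2.49 and 1.90 CPM in the females and 0.788, 0.755 and 0.817 CPM in male 2 to 4. Male 1 was highest of all at 3.19 CPM, and the log2 fold change without it was -1.38 (SE 0.34, edgeR adjusted p = 0.0825). *Pcdh8* passed with DESeq2 (adjusted p = 0.00548), with library size alone (edgeR adjusted p = 0.0494) and with a minimum of 10 counts in every library (edgeR adjusted p = 0.0389), and with male 1 included its log2 fold change was -0.53 (edgeR adjusted p = 0.830). *Pcdh1*, *Pcdh9*, *Pcdh11x* and *Pcdh19*, of which the last is the X-linked protocadherin altered in an epilepsy of girls, lay between 8.08 and 25.2 CPM in the 8 libraries. *Pcdh10* and *Pcdh18* were lower. Among the other protocadherins outside the clusters, the endothelial *Pcdh12* was at 12.8, 7.80, 11.4 and 11.1 CPM in the females, 12.7, 17.1 and 8.49 CPM in male 2 to 4 and 11.3 CPM in male 1, with overlap between the sexes (log2 fold change 0.21, SE 0.28, edgeR adjusted p = 0.749). *Pcdh15*, a tip-link protein of hair cells, and *Pcdh20* did not pass (edgeR adjusted p = 0.220 and 0.289).

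**Figure D3:**
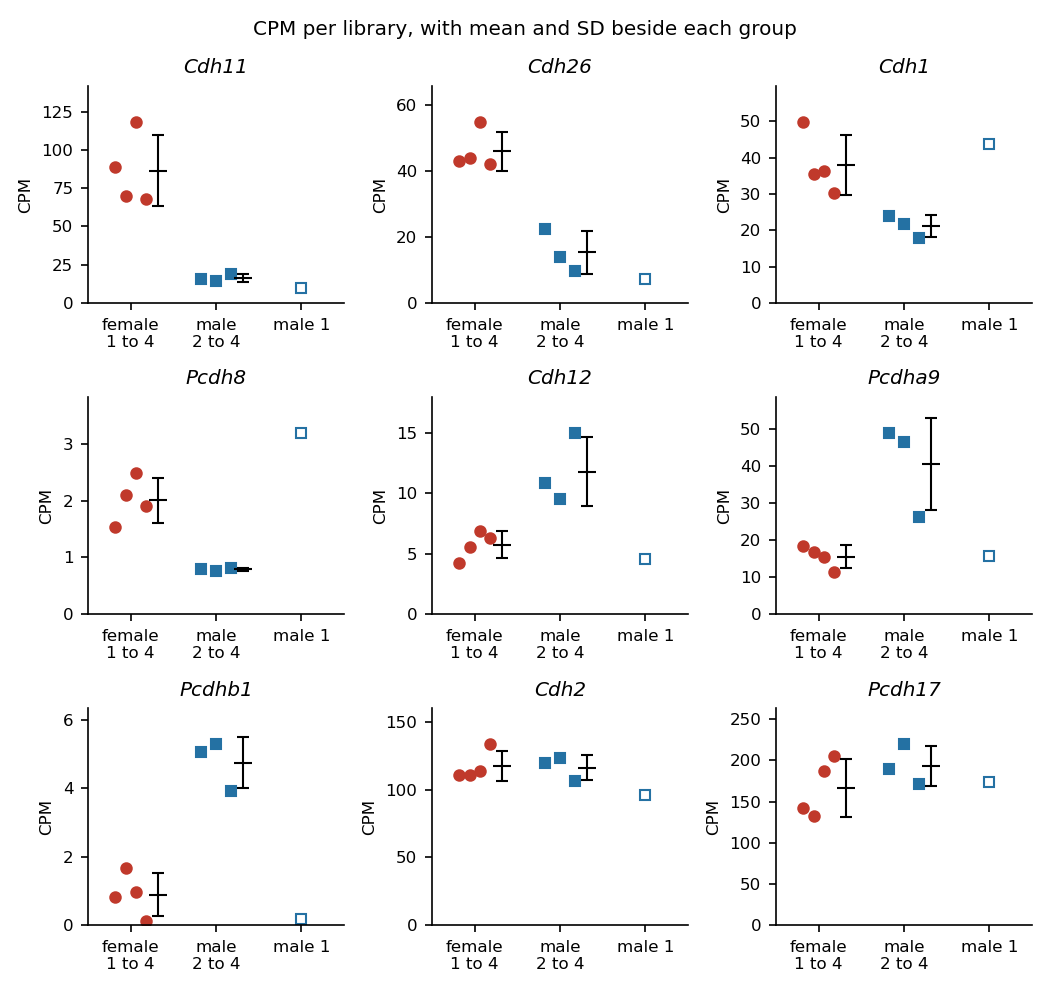
CPM of 9 members in each library, with the mean and SD beside the female and the male 2 to 4 points and male 1 as an open square. *Cdh11* and *Cdh26* passed the test and have male 1 at the bottom (9.69 and 7.29 CPM), whereas male 1 lies with or above the females for *Cdh1*, *Pcdh8*, *Cdh12* and *Pcdha9*.

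The clusters held 57 of the 92 members, 13 alpha, 22 beta and 22 gamma. The alpha and gamma members, 35 in all, share a single locus name in the table, and *Pcdhb21* and *Pcdhb22* share another. The methods name featureCounts with default parameters, but do not say how reads over exons shared by the alpha or gamma members were divided. Near-identical beta genes can split reads too, so values of single cluster members are uncertain. The loci of *Cdh11* and *Cdh26* hold no other symbol, but this does not make their values certain. *Ctnna1* and *Ctnnd1*, which are outside the clusters, also fell several-fold in single libraries, as given below. edgeR called no cluster member, whereas DESeq2 called *Pcdha9* and *Pcdhb1*.

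The alpha cluster summed to 182, 201, 194 and 214 CPM in the females, 266, 270.3 and 199 CPM in male 2 to 4 and 165 CPM in male 1. The groups overlapped, and *Pcdha11*, *Pcdha12* and *Pcdhac2* made up 64.7% of the mean sum. *Pcdha11* was at 37.6, 56.1, 60.4 and 67.5 CPM in the females, 65.8, 73.2 and 52.7 CPM in male 2 to 4 and 33.7 CPM in male 1, with a log2 fold change of 0.17 (SE 0.23, edgeR adjusted p = 0.754). *Pcdha12* was at 22.0, 32.8, 36.3 and 36.1 CPM in the females, 66.9, 54.1 and 42.3 CPM in male 2 to 4 and 36.2 CPM in male 1. Its groups without male 1 did not overlap, and its log2 fold change of 0.74 (SE 0.24) did not pass (edgeR adjusted p = 0.149). *Pcdhac2*, a C-type variant that in neurons is used by all cells of a type rather than chosen at random, was at 58.5, 38.9, 44.6 and 41.8 CPM in the females, 37.4, 30.8 and 31.8 CPM in male 2 to 4 and 46.0 CPM in male 1. It stood on the other side of 0 from *Pcdha12* (log2 fold change -0.49, SE 0.18, edgeR adjusted p = 0.202). *Pcdha9* came nearest to the threshold of the cluster members. It was at 18.3, 16.7, 15.5 and 11.2 CPM in the females, 48.8, 46.4 and 26.2 CPM in male 2 to 4 and 15.6 CPM in male 1. The log2 fold change was 1.35 (SE 0.27, edgeR adjusted p = 0.0525), 1.58 without male 4 (adjusted p = 0.0495) and 1.14 with male 1 included (adjusted p = 0.305). *Pcdha9* also passed with DESeq2 (adjusted p = 0.000584) and with a minimum of 10 counts in every library (edgeR adjusted p = 0.0414), so that it was past the threshold in 3 of 16 alternatives. The other alpha members stayed under 25 CPM in every library.

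The beta cluster summed to 247, 229.9, 236 and 218 CPM in the females, 314, 366 and 197 CPM in male 2 to 4 and 144 CPM in male 1. The sexes overlapped, since male 4 was below all females, and male 1 was the lowest library. The leading 3 variants, *Pcdhb14*, *Pcdhb9* and *Pcdhb7*, made up 40.9% of the mean sum. Of the 20 beta members tested, 14 had a log2 fold change above 0 and 6 below, with a median of 0.15. *Pcdhb14* was at 36.5, 28.1, 39.0 and 30.0 CPM in the females, 52.6, 60.5 and 40.6 CPM in male 2 to 4 and 20.6 CPM in male 1. All of male 2 to 4 were above the females and male 1 was below them, and the log2 fold change of 0.58 (SE 0.19) did not pass (edgeR adjusted p = 0.155). *Pcdhb9* was at 45.3, 15.9, 36.7 and 22.5 CPM in the females, 46.6, 38.0 and 22.3 CPM in male 2 to 4 and 13.5 CPM in male 1, with overlap (log2 fold change 0.21, SE 0.40, edgeR adjusted p = 0.834). *Pcdhb1* had the highest log2 fold change of all members at 2.38 (SE 0.66), from few counts, and did not pass (edgeR adjusted p = 0.106, DESeq2 adjusted p = 0.00962), and with male 1 included it was 2.01 (edgeR adjusted p = 0.532). It had 19, 34, 31 and 3 counts in the females, 128, 140 and 86 counts in male 2 to 4 and 4 counts in male 1.

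A pair of beta genes was found in some libraries only. *Pcdhb17* had 476 counts in female 2 and 1011 in male 3 (23.2 and 38.2 CPM) and 0 in each of the other libraries. *Pcdhb21* had 224 counts in female 2 (10.9 CPM) and 0 elsewhere. In libraries of this depth a count of 0 allows at most 0.146 CPM by counting error alone, so these values are all or nothing rather than low. Neither gene passed the filter of the edgeR test.

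The gamma cluster was the part of the family in which libraries of the same sex differed most. Its sum was 316, 77.1, 287 and 327 CPM in the females, 77.1, 326 and 354 CPM in male 2 to 4 and 397 CPM in male 1. Female 2 and male 2 were thus several-fold below the other 6 libraries, which lay between 287 and 397 CPM. The A and B variants carried this, at 282, 59.2, 266 and 307 CPM in the females, 64.5, 309 and 328 CPM in male 2 to 4 and 374 CPM in male 1. Without female 2 and male 2 the mean summed level was 310.0 CPM in the females and 340 CPM in the males, and with them it was 252 ± 118 CPM (SD, n = 4) and 253 ± 153 CPM (SD, n = 3). The alpha and beta sums of female 2 and male 2 were not low. In both libraries *Pcdhgb6*, the gamma variant with the highest mean CPM over the 7 libraries though not in the females alone, was at 5.85 and 5.79 CPM, against 50.9, 32.3 and 26.3 CPM in female 1, 3 and 4, 52.4 and 57.8 CPM in male 3 and 4, and 36.7 CPM in male 1. Its log2 fold change of 0.40 had an SE of 0.86 (edgeR adjusted p = 0.856).

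The drop was not limited to the gamma cluster. Entries low in both female 2 and male 2 were counted. This pair was chosen after the values were seen, and no other pair was counted. Of 17090 entries with a mean of at least 1 CPM, 28 were below 0.5 times the lowest other library in both female 2 and male 2, and 5 of these were gamma members, *Pcdhga4*, *Pcdhga5*, *Pcdhgb6*, *Pcdhgb7* and *Pcdhgb8*. Among the others, the selenoprotein gene *Selenof* was at 29.2 and 47.6 CPM in these libraries and between 402 and 1043 CPM in the others, and the clathrin adaptor gene *Picalm* at 3.02 and 4.57 CPM against 86.9 to 121 CPM. The cause was not tested. The C-type gamma variants are known for broad use in the nervous system. *Pcdhgc4* was at 20.1, 12.7, 9.82 and 12.2 CPM in the females, 8.27, 7.17 and 12.5 CPM in male 2 to 4 and 21.5 CPM in male 1, and it did not pass (log2 fold change -0.59, SE 0.32, edgeR adjusted p = 0.368). *Pcdhgc5* had 0 counts in female 2 and male 1 and was between 2.25 and 12.1 CPM in the other 6 libraries.

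**Figure D4:**
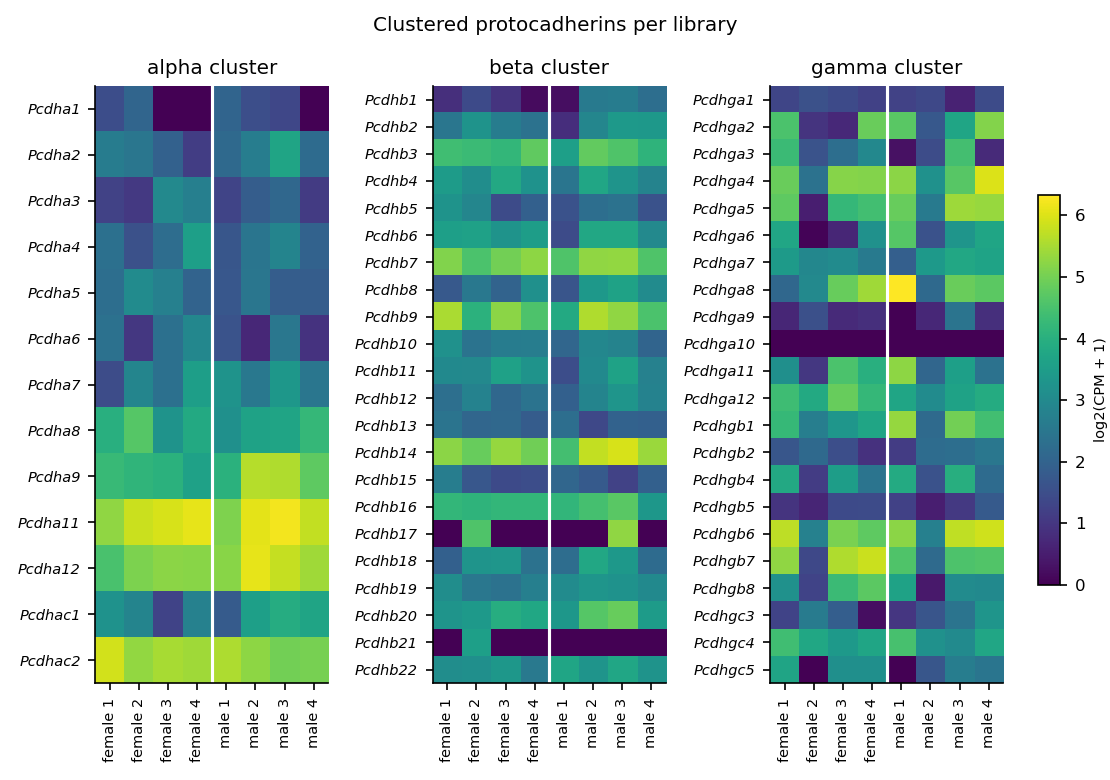
log2(CPM + 1) of the 57 clustered members (rows, in order of name) in the 8 libraries (columns, with a white line between the sexes), 1 panel per cluster on a common colour scale. *Pcdha11* and *Pcdhb14* are bright in all libraries, whereas most A and B gamma rows are dark in female 2 and male 2, and *Pcdhb17* and *Pcdhb21* are lit in 2 libraries and 1 library.

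**Figure D5:**
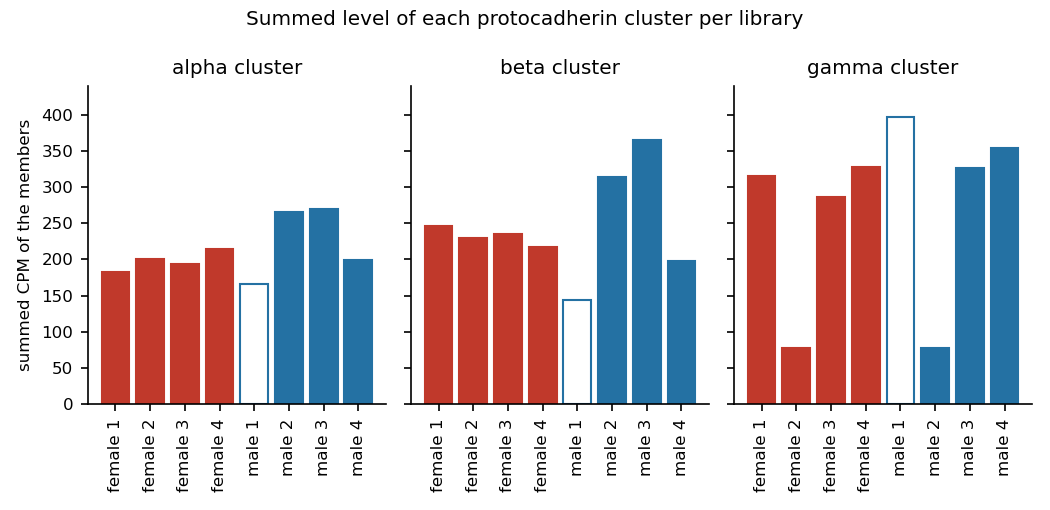
Summed CPM of each cluster per library, with female 1 to 4 in red, male 2 to 4 in blue and male 1 as an open bar. The gamma sum is 77.1 CPM in female 2 and in male 2 and between 287 and 397 CPM elsewhere, while the alpha sum stays between 165 and 270.3 CPM.

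The spread within a sex differed by class. The median coefficient of variation was 65.7% in the females and 72.8% in male 2 to 4 for the gamma A and B variants, 52.7% and 35.4% for the alpha variants outside the C type, 25.1% and 31.5% for the beta variants and 27.5% and 23.0% for the delta protocadherins. Over all genes tested it was 27.9% and 23.6%. The gamma value rested on female 2 and male 2. Without both, it was 34.7% over the other 3 females and 25.6% over male 3 and 4, against 26.2% and 19.2% for all genes tested. The same step gave 32.5% and 47.0% for the alpha variants, 25.4% and 33.8% for the beta variants and 32.8% and 21.4% for the delta protocadherins. The 3 gamma C-type variants were at 72.6% and 40.6% with these libraries and 38.3% and 38.2% without. As for single genes, the standard error of the log2 fold change was 0.13 for *Cdh2* and 1.39 for *Pcdhga2*, which was under 1 CPM in female 2 and 3 and between 22.4 and 34.5 CPM in female 1, female 4 and male 4.

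Partners and regulators of the family were read from the same test, as a list of 64 genes of which 51 were tested. None of the 51 passed the adjusted threshold in edgeR, against 2.34% of all genes tested, and 17 had an unadjusted p under 0.05, against 19.9%. The libraries of the sexes did not overlap for 15 of the 51 (22.3% of all genes), of which 11 were lower in male 2 to 4 (10.8%) and 4 higher (11.5%). DESeq2 called 8 genes of the list, against 9.93% of all genes, namely *Arvcf*, *Ctnnal1*, *Ctnnb1* and *Vcl* of the junction partners, *Dsg2*, *Clstn2*, *Fat2* and *Wasf1*. The median log2 fold change was -0.10. By group, edgeR called 0 of 13 catenins and junction partners, 0 of 2 desmosomal cadherins, 0 of 14 other cadherin superfamily genes, 0 of 11 regulators of clustered protocadherin promoters and 0 of 11 cleavage or cytoplasmic partners. *Ctnnb1*, which encodes the beta-catenin that binds the tail of the classical cadherins, was at 448, 387, 478 and 48.8 CPM in the females, 67.1, 65.0 and 53.9 CPM in male 2 to 4 and 420.0 CPM in male 1. Female 4 was thus with the males and male 1 with the females, and the log2 fold change of -2.49 (SE 0.70) did not pass (edgeR adjusted p = 0.115), while without female 4 it was -2.83 with an adjusted p of 0.00609. *Ctnna1*, which encodes alpha-E-catenin, was at 280.0, 202, 16.9 and 197 CPM in the females and between 240.3 and 308 CPM in the males, and *Ctnnd1*, which encodes p120-catenin, was at 2.42 CPM in female 3 and 3.39 CPM in male 2 and between 108 and 138 CPM in the other 6 libraries. *Ctnnb1* was thus several-fold lower in 4 libraries, male 2 to 4 among them, *Ctnnd1* in 2 and *Ctnna1* in 1. Such drops were not limited to the catenins. Of the same list, *Nckap1* was at 145 CPM in female 1 and 127 CPM in male 2, and at most at 8.38 CPM elsewhere. *Cyfip2* was at 21.1 CPM in female 1 and at 19.4, 23.0 and 15.4 CPM in male 1, male 2 and male 4. In the other libraries *Cyfip2* was between 223 and 356 CPM. The cause was not tested, and neither was its part in the values of *Cdh11* and *Cdh26*. *Ctnna2*, *Ctnnd2* and *Jup* had log2 fold changes of 0.65 (SE 0.94), 0.80 (SE 0.30) and 0.53 (SE 0.30), with edgeR adjusted p of 0.771, 0.205 and 0.403.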

How the data were processed

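The authors deposited unnormalized read counts per gene for 8 libraries in 1 table. Per the methods and the labels, low-input libraries were sequenced in pairs, trimmed with cutadapt, mapped to mm10 (GRCm38) with STAR and counted with featureCounts. The annotation is not given in the sources used here, and entries carry locus names (MSTRG) that the methods do not mention. No column of another sample was present.

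Counts were compared with edgeR 4.0.16 in R 4.3.3 (quasi-likelihood test, TMM factors, filterByExpr, Benjamini-Hochberg adjustment over all genes tested, threshold 0.05), male 2 to 4 against female 1 to 4. The standard error is the absolute log2 fold change over the square root of F. CPM used TMM factors over all 8 libraries. Exact permutation tests were two-sided, on log2(CPM + 1). Intervals and floors cover counting error only. DESeq2 1.42.0, other scalings, other filters, all 8 libraries, a replicate block, robust dispersion, counts per locus and leaving out each library were alternatives, and leaving out both libraries numbered 2 was added after the data were seen. Coordinates, lengths and exons came from GENCODE M21, which matched 92 of 92 symbols. The test was run on simulated counts for male 2 to 4 against female 1 to 4. It recovered 64.7% of the tested genes that were given a log2 change of 3, and 2.42% of its calls were false. A gene that did not pass can therefore still differ.

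Named were members past the threshold, the 12 with the highest mean CPM, the 10 with the smallest p and the leader of each class, and of the partner list 6 catenin genes. *Nckap1* and *Cyfip2* were named after the values were seen. Members and lists were chosen with earlier results of these data known.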

Additional observations from a re-analysis of the deposited data

Results flagged for a closer look

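In 6 of 48 groups of 4 libraries, 1 library stood far from the other 3 by Dixon's test. Independent groups would give about 2.4 by chance, but these groups are not independent. The gamma sum contains its A and B variants, male 1 had already been set aside, and some members were named for a small p. The counts therefore cannot be compared. *Pcdh8* reached 3.19 CPM in male 1, against 0.755 to 0.817 CPM in male 2 to 4. *Cdh3* was at 0.873 CPM in male 1 against 0 in male 2 to 4. *Cdh26* was at 54.9 CPM in female 3 and between 42.3 and 44.0 CPM in the other females. *Cdh2* was at 133.9 CPM in female 4 and between 111 and 114 CPM in the other females. The summed gamma cluster was at 77.1 CPM in female 2 and between 287 and 327 CPM in the other females, and its A and B variants were at 59.2 CPM and between 266 and 307 CPM.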

How the results depend on the processing

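The count of genes called was 471. It was 2253 with DESeq2, 808 with library size alone, 177 with a minimum of 1 count in total, 67 with all 8 libraries, 25 without both libraries numbered 2, and between 88 and 171 when 1 library was left out. The count of members called was 2, and it was 9 with DESeq2, 4 with library size alone (4.01% of all genes), 4 with at least 10 counts in every library (3.64%), 1 with a minimum of 1 count in total (0.562%), 1 with all 8 libraries (0.342%), 0 without both libraries numbered 2 (0.121%), and between 0 and 2 when 1 library was left out (0.421% to 0.865%). For the partner list, DESeq2 called 8, library size alone 1 and the minimum of 10 counts 1, and leaving out 1 library gave between 0 and 1. With the replicate block 0 genes and 0 members were called by edgeR, with 2954 genes at an unadjusted p under 0.05. Deviations of same-numbered libraries correlated at -0.0267, -0.00212 and -0.00163, and no library correlated best with its own number. Over all female and male pairs the correlation was between -0.031 and 0.0336. Values this close together cannot tell whether same-numbered libraries were prepared together. Female 2 and male 2 shared the low gamma values given above.

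*Cdh11* kept its direction in 17 of 17 alternatives and was past the threshold in 13, and *Cdh26* in 17 and 7. The fold changes that changed sign were the following. With library size alone, *Pcdha11* was at -0.028, *Pcdhb9* at -0.0013, *Pcdh17* at -0.023 and *Cdh5* at -0.20 on the log2 scale, where the median of all genes was at -0.24 rather than -0.03. With all 8 libraries *Pcdhb9* was at -0.0089. When 1 library was left out, *Pcdhb9* was at its lowest at -0.019 and its highest at 0.49, *Pcdhgb6* at -0.020 and 0.92, *Pcdh12* at -0.053 and 0.43, *Cdh2* at -0.083 and 0.045 (0.011 without male 4), *Cdh5* at -0.081 (-0.014 without female 2) and 0.13, and *Ctnnd1* at -0.73 and 0.26. Without both libraries numbered 2, *Pcdhb9* was at -0.23, *Cdh5* at -0.036 and *Ctnnd1* at 0.36. The female alpha and beta sums were 212 and 249.97 CPM with library size alone. At 5 CPM, 32 members were found in every female and 40 in each of male 2 to 4. The smallest exact permutation p was reached by 11 of 20 named members, some of them named for a small p, and by 10 with a pseudocount of 0.1. This count is therefore no result about the family. The sexes did not overlap for 22.3% of all genes tested. Where not stated, the cause was not tested. Members under the floor of 3 counts are beyond this depth.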
